A study of Mus musculus with 6 samples.

Results

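The Hox genes encode homeodomain transcription factors that lie in 4 genomic clusters, and their transcripts were described here in whole mouse fetuses with and without overexpression of KLF12. The members were the genes whose symbols carry the Hox stem, a cluster letter a to d and a paralog number. Of the 39 mouse genes with such a symbol, 37 were analysed, among the 17741 rows of the deposited table: 11 in Hoxa, 9 in Hoxb, 8 in Hoxc and 9 in Hoxd. Hoxb13 and Hoxc12 were not analysed here. The rule for members used names only and no measured value, but it was set with earlier results of these data known.

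The study compared C57BL/6 fetuses at 9.0 days post coitum, 3 labelled wild type (WT) and 3 labelled KLF12 overexpression, to look for mechanisms of neural tube defects under a high level of KLF12. KLF12 is a Krüppel-like zinc-finger factor known mainly as a transcriptional repressor. The labels name no promoter, transgene or cell type for the overexpression, and they do not say whether a sample was a single fetus or a pool. The error behind each p-value is therefore the sample-to-sample spread, and some of it may be technical.

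Hox genes are numbered by paralog group, 1 at the end of the cluster that acts nearest the head and 13 at the end that acts nearest the tail. In vertebrate embryos the low-numbered groups are activated earlier and reach further forward, into the hindbrain, while the high-numbered groups come on later in the tail bud, posterior trunk and limb buds. Members of a paralog group in different clusters descend from a common ancestral gene and have similar homeodomains. In the mouse the clusters lie on chromosomes 6 (Hoxa), 11 (Hoxb), 15 (Hoxc) and 2 (Hoxd). A whole fetus mixes Hox-positive trunk with Hox-negative head and extraembryonic tissue. In such bulk samples, fewer cells that express a gene and less RNA per cell cannot be told apart.

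Levels are given in FPKM, fragments per kilobase of transcript scaled to the mapped fragments of the library, a unit scaled by length, so that levels of different genes can be set side by side. The 6 libraries held an estimated 15200000 to 16900000 fragments, and FPKM summed to 528236 (KLF12 library 3) to 635381 (KLF12 library 2). Klf12 itself was measured at 1.99, 2.11 and 1.32 FPKM in WT libraries 1, 2 and 3 and at 16.44, 15.15 and 23.94 in KLF12 libraries 1, 2 and 3. All 3 overexpressing libraries lay above all 3 WT libraries (log2 difference 2.78 ± 0.22 SE, limma adjusted p = 0.00113; two-sided exact permutation p = 0.1, the smallest that 3 against 3 allows). The library that stood apart was KLF12 library 3. Its log2 deviation from the WT mean went up with the length of the transcript over 11526 genes (Spearman rho 0.423), whereas rho was 0.0504 in KLF12 library 1 and -0.221 in KLF12 library 2.

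In WT fetuses the highest Hox transcripts came from Hoxb and Hoxd. Hoxb2, which is active in the hindbrain, stood at 35.4 ± 2.24 FPKM (SD, n = 3), and Hoxb9, a trunk gene, at 31.2 ± 1.98. Hoxd4 followed at 20.9 ± 4.63, Hoxb8 at 20.0 ± 3.89 and Hoxa9 at 16.6 ± 2.10 FPKM. Sorted by WT mean, 33 of the 36 neighbouring pairs had overlapping WT values, so most of the order was not resolved. The pairs that did not overlap were Hoxb9 above Hoxd4, Hoxd10 above Hoxa4 and Hoxa13 above Hoxc13. The grid of levels by group and cluster shows signal in every group from 1 to 10, with 20 members at 5 FPKM or more in each of the 6 libraries, and little beyond group 11.

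**Figure D1:**
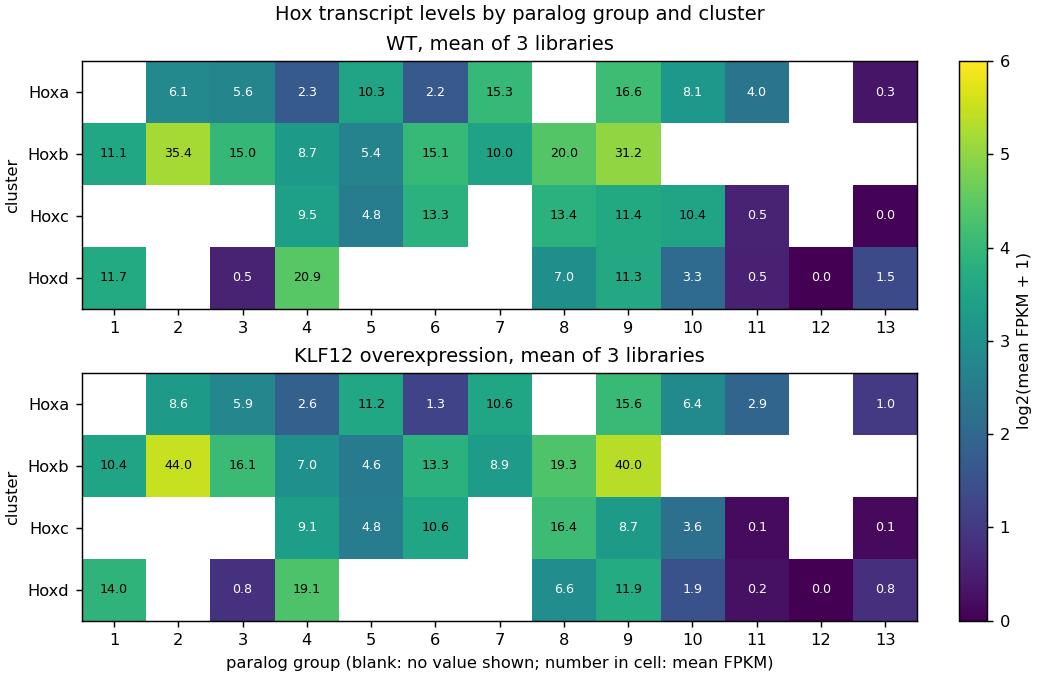
Mean FPKM of the Hox members shown in WT and KLF12-overexpressing fetuses (3 libraries each), by cluster (rows) and paralog group (columns), coloured by log2(mean FPKM + 1). Hoxb2 and Hoxb9 are the highest members in both panels, and in groups 11 to 13 every member other than Hoxa11 has a mean under 2 FPKM.

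The most posterior genes were near the lower limit of the measurement. Hoxd12, which patterns distal limbs later in development, was listed at 0.02 FPKM in WT library 2 and at 0 in the other libraries. Hoxc13 was listed at 0, 0.10 and 0 in WT and at 0.12, 0.20 and 0 in the KLF12 group. Hoxc11 was listed at 0, 1.13 and 0.38 in WT and at 0, 0.14 and 0.23 in KLF12 libraries, and Hoxd11 at 0.25, 0.95 and 0.22 and at 0.06, 0.14 and 0.39. A value of 0 in this table is not proof of absence, since Men1, a broadly expressed gene, was also listed at 0 in KLF12 library 1.

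The Hox profile of the overexpressing fetuses kept nearly the same order of levels. Across the 37 members the mean levels of the groups had a Spearman rho of 0.954, a description over genes that share the same libraries. Hoxb2 and Hoxb9 ranked 1 and 2 in both groups. The summed Hox FPKM was 307, 377 and 373 in WT libraries 1 to 3 and 297, 339 and 415 in KLF12 libraries 1 to 3. These sums overlapped, with the highest and the lowest both in the KLF12 group. The mean sum was 353 ± 39.5 in WT and 350 ± 59.8 in the KLF12 group (SD, n = 3), a ratio of 0.993. The log2 ratio of these means, -0.01, turned to 0.04 when each library was rescaled to TPM, so the total has no firm direction.

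For the test, log2(FPKM + 1) was fitted in limma for the 12141 genes that averaged 1 FPKM or more across all 6 libraries, and p-values were adjusted over all of them. The pseudocount makes the fold change of low genes look smaller. Of the 37 members, 31 passed the filter; Hoxa13, Hoxc11, Hoxc13, Hoxd3, Hoxd11 and Hoxd12 did not. Of these 31, 0 were called at an adjusted p under 0.05, where 0.733% of all genes tested were called, 0.0988% as higher and 0.634% as lower. At an unadjusted p under 0.05 the count was 3 (Hoxb2, Hoxb9 and Hoxc10), 9.68% of the members against 10.9% of all genes. The smallest adjusted p was 0.288, for Hoxc10. Values were lower in the KLF12 group for 21 members and higher for 10, so 32.3% were higher, against 47.3% of all genes tested. The median log2 difference of the members was -0.10, against -0.02 over all genes tested. This median was 0.0027 without KLF12 library 1, with 16 members higher and 15 lower, and -0.29 without KLF12 library 3.

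Most differences were small. Of the 31 tested members, 27 had a log2 difference within 0.5 of 0 and 30 within 1, the exception being Hoxc10. The standard errors ran from 0.12 to 0.57 with a median of 0.24. The 95% interval for Hoxb8, at a log2 difference of -0.04, ran from -0.45 to 0.37. That for Hoxb3, at 0.03, ran from -0.58 to 0.65. Differences of these sizes were therefore not detectable for these genes with 3 libraries in a group.

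**Figure D2:**
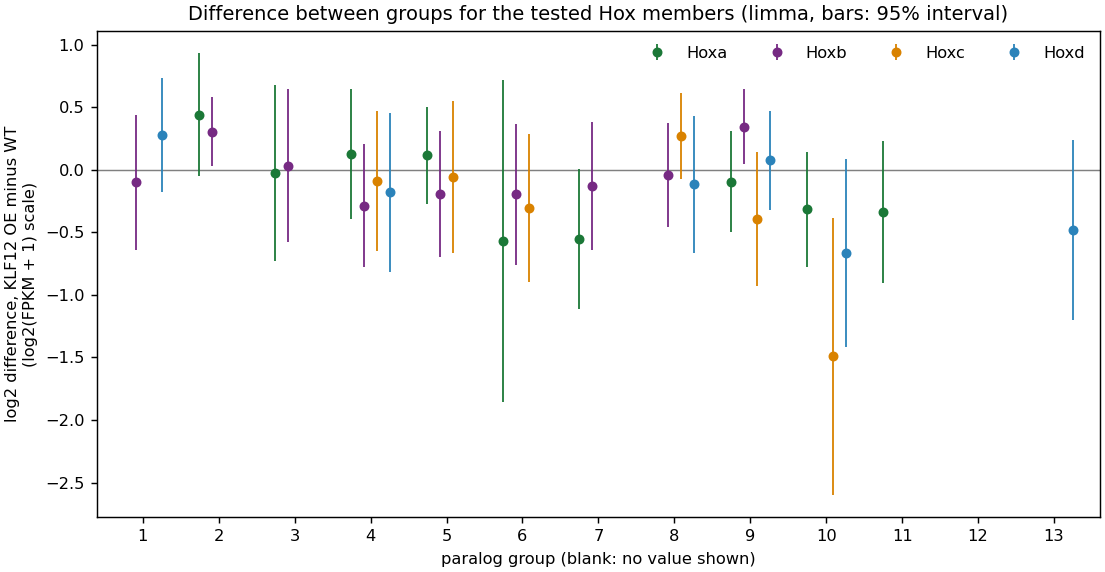
Log2 difference between KLF12-overexpressing and WT fetuses for 30 of the 31 tested Hox members, by paralog group and coloured by cluster; points are limma estimates on the log2(FPKM + 1) scale and bars their 95% intervals. Estimates in groups 1 and 2 are mostly above 0, those in group 10 are all below 0, and Hoxc10 lies lowest at -1.49. Groups 11 and 13 hold 1 tested member each, Hoxa11 and Hoxd13, both below 0. Hoxd13 passed the filter only through its WT values.

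Taken by position class, the median estimate was positive in the anterior groups and negative in the middle and posterior ones. Anterior groups 1 to 3 had 5 positive and 2 negative values with a median log2 difference of 0.23. Middle groups 4 to 8 had 3 positive and 12 negative values with a median of -0.13. Posterior groups 9 to 13 had 2 positive and 7 negative values with a median of -0.34. The negative values include Hoxd13, which passed the filter only through its WT values, and this favours a negative sign. Its paralog Hoxa13, with the higher mean in the KLF12 group, did not pass the filter and is not in these counts. The medians did not fall steadily from group to group: they were 0.004 in group 3, -0.30 in group 6, -0.34 in group 7, -0.04 in group 8, -0.01 in group 9 and -0.66 in group 10. Across the 31 genes the log2 difference and the paralog number had a Spearman rho of -0.553, a description over genes that share libraries and clusters. It was -0.449 to -0.620 with each library left out, and -0.557 with the length trend of each library removed. With no filter, over all 37 members, rho was -0.371, as Hoxa13, Hoxc13 and other low genes entered.

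The relation was negative in each overexpressing library. Deviations from the WT mean correlated with paralog number by a rho of -0.308, -0.475 and -0.520 in KLF12 libraries 1, 2 and 3, all measured against the same WT mean. The corresponding values for WT libraries 1, 2 and 3 against the mean of the other WT libraries were 0.0778, 0.214 and -0.268, so WT library 3 came close to KLF12 library 1. The libraries differed in overall height: the median deviation over the 31 tested Hox members was -0.39, -0.17 and 0.22 in KLF12 libraries 1, 2 and 3. It was -0.16, 0.10 and 0.08 in WT libraries 1, 2 and 3, each of which is part of that mean. WT library 1, with 24 of 31 members below the WT mean, thus lay about as low as KLF12 library 2. In KLF12 library 3, 7 of 7 anterior members and 12 of 15 middle members lay above the WT mean, but 3 of 9 posterior members. KLF12 library 1 had 4 of 7 anterior, 3 of 15 middle and 1 of 9 posterior members above it.

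**Figure D3:**
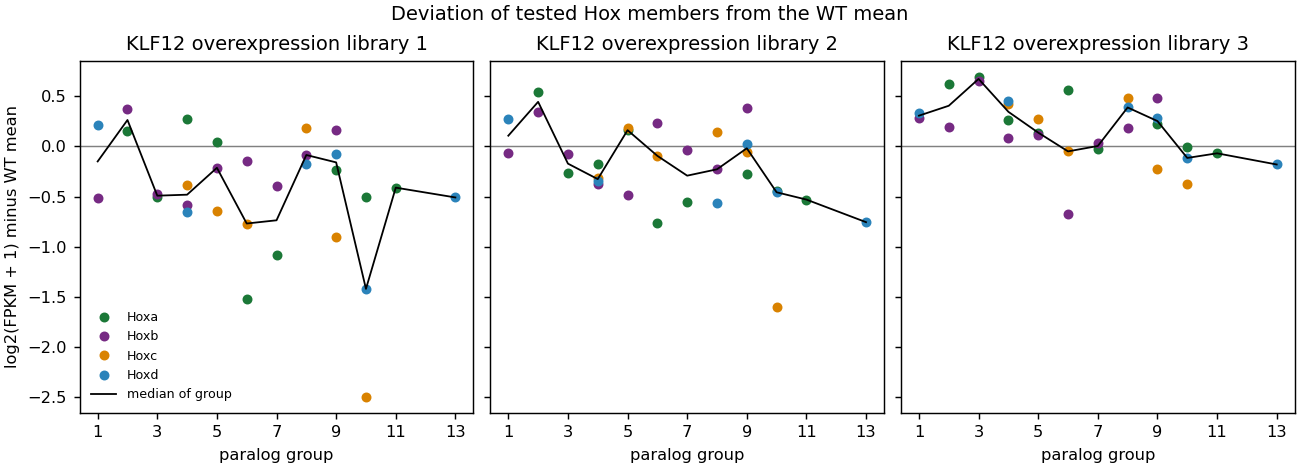
Deviation of 30 of the 31 tested Hox members from the WT mean, in log2(FPKM + 1), in KLF12 libraries 1, 2 and 3 against paralog group, coloured by cluster, with a line through the median of the points of each group. The line goes from above 0 at group 2 to below 0 at groups 10, 11 and 13 in each library. Groups 11 and 13 have 1 tested member each, and that of group 13, Hoxd13, passed the filter only through WT. Library 3 as a whole lies highest and library 1 lowest (medians over all 31 members 0.22 and -0.39).

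As a share of all Hox FPKM in a library, a measure that removes its overall Hox level, the anterior groups made up 27.4%, 26.0% and 27.9% in WT libraries 1 to 3. They made up 33.6%, 32.5% and 30.3% in KLF12 libraries 1 to 3, so the groups did not overlap. The means were 27.1% ± 0.956 and 32.1% ± 1.66 (SD, n = 3). Taken singly, the shares of groups 1, 2 and 3 each overlapped between WT and KLF12 libraries. The summed anterior FPKM also overlapped, at 84.1, 98.3 and 104.2 in WT and 99.5, 110.3 and 125.6 in KLF12 libraries. Hoxb2 alone made up 37.1% of this sum in WT and 39.3% in the KLF12 group. Middle groups took 44.7% ± 1.43 in WT and 41.3% ± 1.26 in KLF12 libraries, and the ranges were 43.1% to 45.8% and 40.5% to 42.8%. Posterior groups took 28.2% ± 1.68 and 26.5% ± 0.503, with overlapping values. These shares were summed over members chosen by name and carry no p-value, and a higher share of some groups lowers that of the others by arithmetic.

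**Figure D4:**
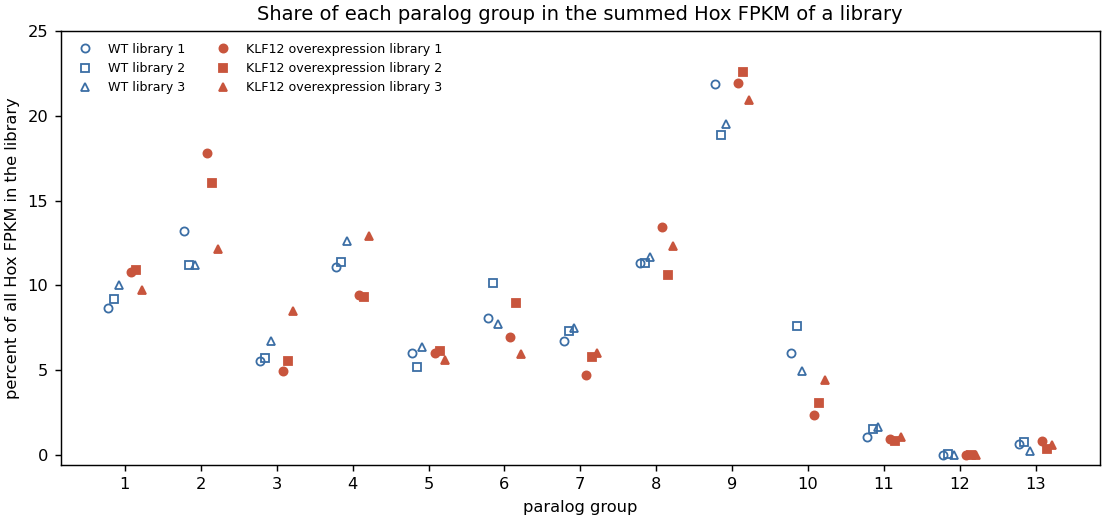
Percent of the summed Hox FPKM of a library that each paralog group contributed, in the 3 WT libraries (open symbols) and 3 KLF12 libraries (filled symbols). Groups 7 and 10 are lower in each KLF12 library than in each WT library, and group 9 is the largest in all 6, at 18.8% to 22.6%.

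Group 1 genes act earliest, in hindbrain patterning. Hoxd1 was at 8.59, 11.09 and 15.42 FPKM in WT and at 13.41, 14.01 and 14.63 in KLF12 libraries, within the WT range. Hoxb1, the gene of rhombomere 4 in the hindbrain, was at 8.40, 13.27 and 11.68 and at 7.35, 10.44 and 13.49 FPKM, with overlapping values.

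Both analysed genes of group 2 had higher means in the KLF12 group. Hoxb2 stood at 32.96, 35.98 and 37.34 FPKM in WT and at 46.08, 45.29 and 40.57 in KLF12 libraries. All 3 KLF12 values lay above the WT values, with a log2 difference of 0.30 ± 0.12 (SE; unadjusted p = 0.0347, adjusted p = 0.405 by limma). Hoxa2, which sets the identity of the second branchial arch, was at 7.61, 6.18 and 4.57 FPKM in WT and at 6.81, 9.21 and 9.77 in KLF12 libraries. KLF12 library 1 lay within the WT range, and the log2 difference was 0.44 ± 0.22 (adjusted p = 0.515). Without WT library 3 it was 0.27. The summed level of the group was 41.5 ± 0.855 FPKM in WT and 52.6 ± 2.10 with overexpression (SD, n = 3).

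In groups 3 and 4 the KLF12 libraries spread widely, with library 3 highest in both summed levels. Hoxb3 was at 12.00, 16.37 and 16.71 FPKM in WT and at 10.43, 14.02 and 23.99 in KLF12 libraries. Hoxd4, the leading gene of group 4, was at 15.55, 23.01 and 24.04 in WT and at 12.67, 15.98 and 28.50 in the KLF12 group. In both genes KLF12 library 1 lay below every WT library and KLF12 library 3 above every WT library. The summed level of group 3 was 21.2 ± 3.98 and 22.8 ± 10.8 FPKM, and that of group 4 41.3 ± 6.68 and 37.7 ± 13.8 (WT and KLF12, SD, n = 3). Hoxa3, Hoxa4, Hoxb4 and Hoxc4 had log2 differences of -0.03, 0.12, -0.29 and -0.09. Hoxd3 was at 0.19, 0.28 and 1.09 FPKM in WT and at 0.60, 0.30 and 1.53 in KLF12 libraries.

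Groups 5 to 7 cover the neck and thorax. Hoxa5, known for its part in lung and cervical development, was at 9.67, 8.74 and 12.63 FPKM in WT and at 10.61, 11.57 and 11.36 in KLF12 libraries, within the WT range. Hoxb5 and Hoxc5 had log2 differences of -0.19 and -0.06. Hoxb6 was at 11.34, 16.93 and 17.02 FPKM in WT and at 13.35, 17.67 and 8.93 in KLF12 libraries, where library 3 was the lowest of all 6. Hoxc6 had a log2 difference of -0.30. Hoxa6 was listed at 3.21, 2.92 and 0.42 FPKM in WT and at 0, 0.69 and 3.23 in KLF12 libraries, a wide overlap. Its estimate of -0.57 ± 0.57 (SE) includes that 0, and was -0.10 without KLF12 library 1, -1.14 without KLF12 library 3 and -1.43 with a pseudocount of 0.1.

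Hoxa7, the leading gene of group 7, stood at 13.68, 16.66 and 15.63 FPKM in WT and at 6.71, 10.11 and 14.98 in KLF12 libraries. KLF12 libraries 1 and 2 lay below every WT library, and library 3 within the WT range. The log2 difference was -0.55 ± 0.25 (SE; limma adjusted p = 0.465). It was -0.81 without KLF12 library 3 and -0.29 without KLF12 library 1. Hoxb7 had a log2 difference of -0.13. As a share of Hox FPKM, group 7 was at 6.68%, 7.27% and 7.47% in WT and at 4.67%, 5.77% and 6.02% in the KLF12 group, without overlap.

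In group 8, Hoxc8, a gene of the thoracic and lumbar trunk, was at 12.46, 14.31 and 13.30 FPKM in WT and at 15.30, 14.86 and 19.03 in KLF12 libraries. The groups did not overlap, with a log2 difference of 0.27 ± 0.15 (SE; limma adjusted p = 0.592), and 0.17 without KLF12 library 3. Hoxb8 was at 15.56, 21.56 and 22.86 in WT and at 18.55, 16.71 and 22.64 in the KLF12 group, within the WT range. Hoxd8 had a log2 difference of -0.12.

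Estimates in group 9 had both signs. Hoxb9 was at 33.42, 30.34 and 29.73 FPKM in WT and at 35.09, 40.88 and 43.97 in KLF12 libraries, without overlap. Its log2 difference was 0.35 ± 0.13 (SE; unadjusted p = 0.0288, adjusted p = 0.379 by limma). Hoxc9 was at 9.96, 10.70 and 13.64 in WT and at 5.60, 10.84 and 9.58 in the KLF12 group, with overlap and a log2 difference of -0.39 ± 0.24. Hoxa9 and Hoxd9 had log2 differences of -0.10 and 0.08. The summed level of the group was 70.4 ± 2.95 FPKM in WT and 76.1 ± 10.9 with overexpression (SD, n = 3).

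The groups did not overlap for 4 tested members, Hoxb2, Hoxb9 and Hoxc8 among them, and all 4 were higher in the KLF12 group. They made up 12.9% of tested members. Over all genes tested, 7.90% did not overlap with higher values, 8.98% with lower values and 16.9% in either direction, so the members' share lay below the background for either direction and above that for higher values. The plot of named members by library shows Hoxb2, Hoxb9 and Hoxc8 beside the genes of group 10.

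**Figure D5:**
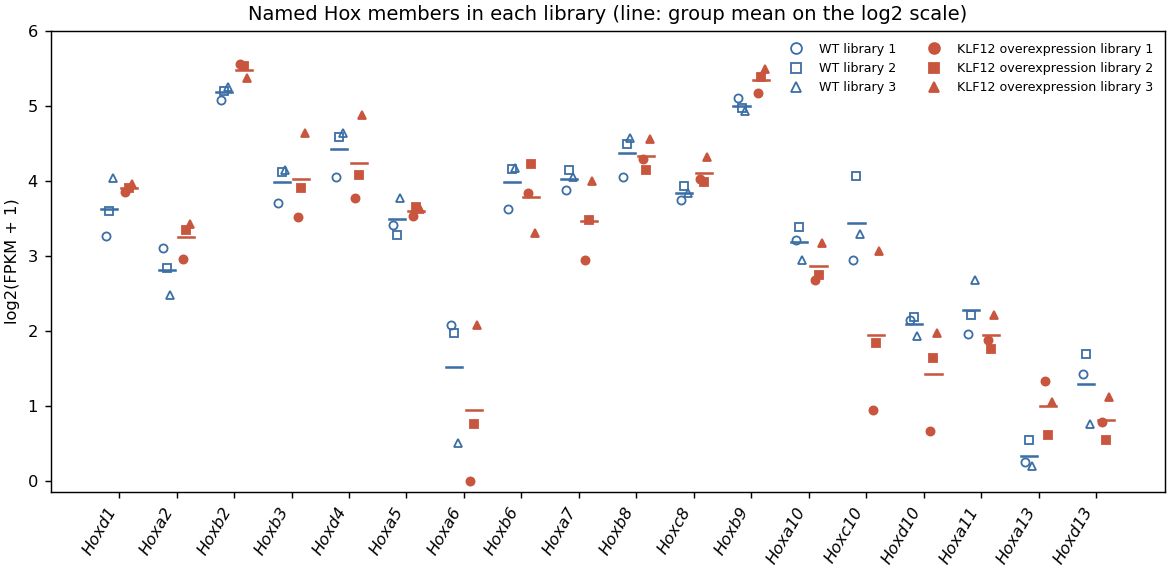
Level of the named Hox members in each of the 6 libraries, as log2(FPKM + 1), ordered by paralog group; open blue symbols are WT, filled red symbols KLF12 overexpression, the symbol shape gives the library number and lines the group means. The groups do not overlap for Hoxb2, Hoxc8, Hoxb9 and Hoxa13, and Hoxc10 has the widest gap between the means, at a log2 difference of -1.49. Hoxd12, under 0.1 FPKM on average, is left out.

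Group 10 genes pattern the lumbar region, and all 3 had lower means in the KLF12 group. Hoxc10 was at 6.72, 15.74 and 8.81 FPKM in WT and at 0.92, 2.56 and 7.34 in KLF12 libraries. KLF12 libraries 1 and 2 lay far below WT, whereas library 3 lay above WT library 1. The log2 difference was -1.49 ± 0.49 (SE; unadjusted p = 0.0136, adjusted p = 0.288 by limma). Without KLF12 library 3 it was -2.05, with an adjusted p of 0.0433 in limma, and without KLF12 library 1 it was -0.99. The former was the only Hox call in any fit run, where 2.63% of all genes were called. Its adjusted p was 0.187 to 0.739 in the other alternative fits.

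Hoxd10, the group 10 gene of Hoxd, was at 3.44, 3.55 and 2.81 FPKM in WT and at 0.59, 2.10 and 2.93 in KLF12 libraries. KLF12 library 3 again lay within the WT range, and the log2 difference was -0.66 ± 0.33 (SE; limma adjusted p = 0.519). It was -0.29 without KLF12 library 1, -0.94 without KLF12 library 3 and -1.01 with a pseudocount of 0.1. Hoxa10 was at 8.28, 9.41 and 6.72 and at 5.39, 5.68 and 8.04 FPKM, with the same arrangement of libraries and a log2 difference of -0.32 ± 0.20. Summed over the group, WT libraries stood at 18.4, 28.7 and 18.3 FPKM and KLF12 libraries at 6.90, 10.3 and 18.3. The sum in KLF12 library 3, 18.31, lay just below the lowest WT sum, 18.34. Group 10 made up 6.00%, 7.60% and 4.91% of Hox FPKM in WT and 2.33%, 3.05% and 4.42% in KLF12 libraries.

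Hoxa11, a gene of the limb and sacral region, was at 2.88, 3.62 and 5.42 FPKM in WT and at 2.66, 2.37 and 3.64 in KLF12 libraries, with a log2 difference of -0.34 ± 0.25, and of -0.14 without WT library 3. Hoxd13, which acts at the tail end and in the digits, was at 1.69, 2.22 and 0.69 in WT and at 0.72, 0.45 and 1.16 in the KLF12 group. Hoxa13, its paralog in Hoxa, had the higher mean in the KLF12 group, at very low levels. It was at 0.19, 0.45 and 0.15 FPKM in WT and at 1.52, 0.52 and 1.08 in KLF12 libraries, without overlap. Its mean over all libraries was under 1 FPKM, and in the fit with no filter 0 Hox members were called.

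By cluster, the Hoxb share of Hox FPKM was 42.9%, 42.8% and 43.4% in WT and 49.9%, 48.5% and 43.1% in the KLF12 group, where library 3 lay within the WT range. The Hoxc share was 17.1%, 19.2% and 17.4% in WT and 13.1%, 15.8% and 16.3% in the KLF12 group, without overlap. Hoxa and Hoxd took 23.0% ± 1.74 and 16.0% ± 1.19 in WT and 22.2% ± 0.904 and 15.6% ± 1.63 in the KLF12 group (SD, n = 3). The highest Hoxc gene was Hoxc8, which made up 21.1% of the Hoxc sum in WT and 30.8% in the KLF12 group. The Hoxc sums themselves overlapped, at 52.5 to 72.5 FPKM in WT and 38.8 to 67.6 in the KLF12 group. Of the 6 tested Hoxc members 5 had negative and 1 a positive log2 difference. Hoxc10 had the largest fall, from a mean of 10.4 FPKM in WT to 3.61 in the KLF12 group. Cluster shares and group shares are not independent: Hoxc holds no member of groups 1 to 3, and Hoxb, as analysed, none beyond group 9.

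Library 3 was the highest of the KLF12 libraries for 25 of the 31 tested members, 80.6%, against 44.3% of all genes. Library 1 was the lowest for 21, 67.7%, against 31.9% of all genes. The SD of log2 values was larger in the KLF12 group than in WT for 22 members, 71.0%, and for 71.8% of all genes. Median SDs were 0.25 in WT and 0.30 in the KLF12 group over Hox members, and 0.14 and 0.26 over all genes. The longest annotated transcripts of the 31 members had a median length of 2251 bases, against 3405 for all genes with a length. Within the members, the deviation of library 3 had a Spearman rho of 0.168 with this length. The part of the length trend in the Hox values was not tested further than by the fit with that trend removed, in which 0 members were called and the median log2 difference was -0.05.

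Markers of other tissues in a whole fetus also moved between libraries. The paraxial mesoderm and somite list had 7 of 7 tested genes lower in the KLF12 group, 0 of them called, with summed levels of 84.0 to 93.1 FPKM in WT and 29.9 to 64.8 with overexpression. KLF12 library 1, lowest for most Hox genes, was also lowest for this list. Head markers that lack Hox transcripts (6 of 8 higher) summed to 20.9 to 39.5 in WT and 29.0 to 63.3 FPKM with overexpression. Neural tube markers (5 of 7 tested genes higher) summed to 78.0 to 84.7 and 82.9 to 159.8 FPKM. Both of these lists were highest in KLF12 library 3. Yolk sac markers (8 of 8 higher) summed to 61.2 to 375 and 269 to 414, and erythroid markers (8 of 8 lower) to 4845 to 11040 and 1266 to 4012 FPKM. Lateral plate markers (4 of 7 higher) summed to 169 to 202 and 175 to 241, and decidual markers (1 of 5 tested genes higher) to 62.6 to 70.8 and 45.0 to 63.4. Within the decidual list Cryab was the highest gene in every library and made up most of each sum, so the sum mainly follows that gene. Prl8a2 of that list was at 1.13, 0.58 and 9.56 FPKM in WT and at 0.56, 10.24 and 0.30 in KLF12 libraries, so its peaks were in WT library 3 and KLF12 library 2. Cryab and Prl8a2 were named after their values were seen. In these lists only Igfbp1 was listed at 0 in any library, and 0 genes were called. Their part in the Hox values was not tested.

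Hox proteins bind DNA together with TALE homeodomain cofactors of the PBX, MEIS and PKNOX families. Of 9 cofactor genes, 9 were tested and 0 called, with a median log2 difference of 0.16. Pbx3 was at 12.97, 13.54 and 13.76 FPKM in WT and at 17.29, 15.26 and 18.43 in the overexpressing fetuses (limma adjusted p = 0.462). Meis3 was at 14.87, 22.45 and 17.29 and at 10.42, 12.53 and 16.90 FPKM (adjusted p = 0.507), with KLF12 library 3 inside the WT range. Hindbrain regulators had 6 of 6 positive values and 0 calls, with a median of 0.27. The summed FPKM of this list was 24.93, 19.35 and 22.59 for WT libraries 1 to 3, against 25.96, 22.48 and 36.22 for KLF12 libraries 1 to 3. Thus KLF12 library 2 lay within the WT range, library 1 just above it and library 3 far above it. Egr2, the segmentation factor of rhombomeres 3 and 5, was at 0.68, 0.45 and 0.47 FPKM in WT and at 0.58, 1.27 and 2.90 in KLF12 libraries. Egr2 passed the filter only through KLF12 libraries 2 and 3, which favours a positive sign, so its place among the 6 carries little weight.

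The list of caudal and axial regulators held Cdx and retinoic acid pathway genes and also T, Gdf11, Nr6a1 and Wnt, FGF and Lin28 genes. It had 15 of 16 genes tested, 6 positive and 9 negative values and 0 calls, with a median log2 difference of -0.08. Rarg, a retinoic acid receptor, was at 27.75, 27.00 and 31.17 FPKM in WT and at 16.68, 14.61 and 20.97 in KLF12 libraries, without overlap (log2 difference -0.70 ± 0.16 SE, limma adjusted p = 0.110). Cdx1, a caudal-type homeobox factor that activates Hox genes, was at 15.38, 9.69 and 13.34 and at 7.48, 7.23 and 6.35, also without overlap (-0.76 ± 0.19, adjusted p = 0.152). Its relatives Cdx2 and Cdx4 had log2 differences of -0.07 and 0.07. The groups did not overlap for 5 of the 15 tested genes of this list, where 16.9% of all genes tested did not overlap in either direction. Rarg, Cdx1 and the ligand Gdf11 were lower, and the nuclear receptors Nr6a1 and Rarb were higher, in the KLF12 group. Nr6a1 had a log2 difference of 0.54 (limma adjusted p = 0.171), Rarb of 0.52 (adjusted p = 0.265) and Gdf11 of -0.52 (adjusted p = 0.271). Nr6a1, Rarb, Gdf11, Cdx2 and Cdx4 were named after their values were seen.

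Polycomb and trithorax genes, which hold Hox clusters silent or active, had 10 positive and 9 negative values among 19 tested, 0 calls and a median log2 difference of 0.02. Bmi1, a Polycomb repressive complex 1 subunit, was at 15.83, 13.61 and 14.32 FPKM in WT and at 22.88, 22.78 and 20.61 in KLF12 libraries, without overlap (log2 difference 0.57 ± 0.14 SE, limma adjusted p = 0.128). Ash2l, a subunit of histone H3 methyltransferase complexes, was at 61.16, 55.75 and 63.54 and at 47.86, 53.37 and 52.57 (adjusted p = 0.546). Genes that flank the clusters had 4 positive and 5 negative values among 9 tested of 14, 0 calls and a median of -0.01. Skap2, beside Hoxa, had a log2 difference of -0.40 (adjusted p = 0.430) and Mtx2, beside Hoxd, -0.40 (adjusted p = 0.444). Of 4 ParaHox and related homeobox genes, 1 was tested, Mnx1, a motor neuron factor, with a log2 difference of 0.26 (adjusted p = 0.872).

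Because KLF proteins are known to bind CACCC boxes, the 250 bases before the annotated start were searched for CACCC on either strand. RefSeq promoter entries (GRCm38.p6) were matched for 22 of the 37 members, 24 entries in all. The letters CACCC or their complement GGGTG occurred in 15 of the 24, 62.5%, against 52.0% of 32851 entries of the same length. TTTATG (complement CATAAA), letters bound by CDX factors, occurred in 5 of 24, 20.8%, against 10.8%. The stretches of Hoxa2, Hoxd10 and Hoxa13 are shown because these members, picked after their values were seen, were respectively higher, lower and higher in the KLF12 group by their means. Capitals mark CACCC or GGGTG, and each is written 5′ to 3′ on the strand of the gene, at chr6:52164832-52165081 (minus strand), chr2:74691641-74691890 (plus) and chr6:52260881-52261130 (minus) of GRCm38.p6.
Hoxa2: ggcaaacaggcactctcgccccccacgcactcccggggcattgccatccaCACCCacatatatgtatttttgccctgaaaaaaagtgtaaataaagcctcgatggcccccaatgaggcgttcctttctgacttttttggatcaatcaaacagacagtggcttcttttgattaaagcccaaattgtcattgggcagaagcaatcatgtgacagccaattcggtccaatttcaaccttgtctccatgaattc
Hoxd10: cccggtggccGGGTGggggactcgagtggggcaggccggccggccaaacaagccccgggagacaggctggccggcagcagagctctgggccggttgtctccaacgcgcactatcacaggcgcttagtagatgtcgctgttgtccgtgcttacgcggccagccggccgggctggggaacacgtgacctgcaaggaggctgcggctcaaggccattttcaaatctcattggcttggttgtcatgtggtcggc
Hoxa13: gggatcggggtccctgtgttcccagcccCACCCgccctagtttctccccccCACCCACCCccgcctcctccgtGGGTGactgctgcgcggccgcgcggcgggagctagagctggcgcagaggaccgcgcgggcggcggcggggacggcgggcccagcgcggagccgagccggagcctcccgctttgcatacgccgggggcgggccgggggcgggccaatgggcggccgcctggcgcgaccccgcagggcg
Hoxa2 and Hoxd10 held the letters at 1 place each, 200 and 240 bases before the start, and Hoxa13 at 4 places between 222 and 177 bases before it. A match is a description of letters and not a binding site.

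Some values could mix neighbouring transcripts. In the RefSeq annotation, 20 of the 37 members overlap another annotated gene, and 10 overlap another Hox member (Hoxa3 with Hoxa4, Hoxa5 and Hoxa6, Hoxb3 with Hoxb4, Hoxd3 with Hoxd4, and Hoxd10 with Hoxd11). Whether the counting used strand is not given in the sources used here, so reads from overlapping or antisense transcripts cannot be told apart for these members. Hoxb2 overlaps the antisense gene Hoxb3os, while Hoxb9, Hoxc8, Hoxc10 and Hoxa7 overlap none.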

How the data were processed

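RNA-seq was carried out on mouse fetuses at 9.0 days post coitum (3 WT, 3 KLF12 overexpression); the reagent for RNA was Trizol, per the labels. The authors deposited FPKM values of all 6 libraries in 1 table. The submitters' processing notes name mm9 as the build and, with no role or order, the tools RSEM 1.2.8, HISAT2 2.0.4 and CASAVA.

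Symbols came from the RefSeq gene table (GRCm38.p6; 16874 of 17741 rows matched), used for names and neighbours only. The file gives no counts and no whole fragments were recovered. The depth estimate rests on the periodic step of FPKM times length in genes with a single GENCODE M21 transcript (coherence 0.148 to 0.288), and is rough.

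Values were tested as log2(FPKM + 1) in limma 3.58.1 (R 4.3.3) with an intensity trend, for genes averaging 1 FPKM or more, without a replicate block, with Benjamini-Hochberg adjustment over 12141 genes and calls under 0.05. The fit was tested on simulated data. Exact permutation tests used scipy 1.17.1. Members and lists were chosen with earlier results of these data known. Members given for each library were those leading a paralog group, the 5 largest positive and 5 largest negative differences, members whose groups did not overlap and, chosen after their values were seen, Hoxb1, Hoxc9 and the members below the filter; of each context list the 2 genes with the smallest p. Values of 1 member and 1 context gene are not reported here; both stay in the fits and counts. Alternatives covered the pseudocount, filter, scaling, variance trend, replicate block, threshold and each library left out; removal of the length trend was added after seeing the data.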

Additional observations from a re-analysis of the deposited data

How the results depend on the processing

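The count of called Hox genes was 0 in the 15 alternative fits except without KLF12 library 3 (1, Hoxc10), with a range of 0 to 1 over the fits that leave out a library, and also 0 at an adjusted p under 0.1. Counting groups that do not overlap, with no test, gave 4. At an unadjusted p under 0.05 the alternative fits gave 0 to 8 members, with the 8 in the fit without KLF12 library 3. In that fit the share of all genes called at an adjusted p under 0.05 was also higher, 2.63% against 0.733% in the main fit. The share of all genes at the unadjusted threshold is not given for the alternative fits, so these counts have no background beside them. The median log2 difference ranged from -0.29 to 0.0027 with each library left out. Of the 18 named members tested, 13 kept their direction without a call in every alternative fit. Hoxb3, Hoxb6, Hoxb8 and Hoxd4 turned direction only in fits that leave out a library, with ranges of -0.28 to 0.29, -0.41 to 0.046, -0.20 to 0.060 and -0.50 to 0.057. Hoxb3 was at -0.11 without WT library 1 and -0.28 without KLF12 library 3, Hoxb6 at 0.046 without KLF12 library 3, and Hoxd4 at 0.057 without KLF12 library 1. Hoxb8 was at 0.020, 0.060 and 0.052 without WT library 2, WT library 3 and KLF12 library 2. Klf12 kept its call throughout, at 2.59 to 2.91 with each library left out.

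The correlation between libraries of the same number, in their deviations from group means, was 0.0273, -0.107 and 0.0361, so no pairing by replicate number was visible; with the replicate block 0 Hox genes were called. With 3 libraries a group, small differences could not be resolved, and without counts the precision of low members is unknown.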
